A study of Homo sapiens with 8 samples.

Results

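The genes described here encode 10 transcription factors of the mammary epithelial lineages, with TP63 and SOX9 taken as basal factors and GATA3, ELF3, ELF5, EHF, FOXA1, ESR1, GRHL2 and PGR as luminal factors. They were named from 20033 protein-coding genes by their known roles, with earlier results of these data known, and the TAZ peaks given to them are those with a summit inside the gene body or within 100 kb of one of its transcription start sites (TSSs). Of 55334 TAZ peaks in 4 lists, 89 met this rule. TAZ binding was measured by ChIP-seq, in which DNA pulled down with an antibody to a protein is sequenced, in MCF10A, an immortal but non-tumorigenic epithelial line from human breast. All cells, those without doxycycline (Dox) included, carried a Dox-inducible TAZ-4SA, a constitutively active form of the co-activator TAZ, and were kept in medium with horse serum, EGF, hydrocortisone, cholera toxin and insulin. The groups were cells without Dox and cells given 0.05 µg/ml Dox for 24, 48 or 72 h, with 1 TAZ library, 1 IgG library and 1 peak list in each. There were no replicates, so the values below describe single libraries and no test between times was possible. Whether the line was made from a single clone is not given in the sources used here. The antibody recognises TAZ, and nothing in the peak lists separates TAZ-4SA from the TAZ that the cells make themselves. The lists hold no expression values, so the labelled cell type could not be checked against its markers.

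The mammary epithelium has an inner luminal layer and an outer basal, or myoepithelial, layer, and each is kept by its own set of transcription factors. TP63 keeps basal and stem-like cells, and SOX9 is active in stem and progenitor cells. GATA3, FOXA1, ESR1 and PGR belong to hormone-sensing luminal cells, ELF5 to the alveolar branch, and ELF3, EHF and GRHL2 to epithelium more widely. TAZ does not contact DNA itself, so a TAZ peak marks a place where a partner holds it, most often a TEAD protein.

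Some of the sites described below are shown here as the 201 bases of hg38 centred on the summit, so that the sequence under each peak can be read beside its fold enrichment, the ChIP signal at the summit over its local background. Capitals mark the TEAD motif, searched as ACATTCC and GCATTCC on both strands, and a position is counted in bases from the summit along the plus strand. The first sequences are the only site in the TP63 window that was called before 72 h (its 48 h summit, in an intron, at chr3:189862462-189862662) and both sites of SOX9 (upstream, at chr17:72104625-72104825, and at the promoter, at chr17:72120581-72120781). The luminal sequences are the strongest site of ESR1 (intron, chr6:151901124-151901324), the strongest of ELF3 (intergenic, chr1:202034798-202034998), an EHF promoter site (chr11:34644738-34644938), the strongest of GATA3 (intergenic, chr10:8075995-8076195) and the site between ELF5 and EHF (intergenic, chr11:34564491-34564691), all at their 72 h summits. All 8 are written on the plus strand.
TP63 intron: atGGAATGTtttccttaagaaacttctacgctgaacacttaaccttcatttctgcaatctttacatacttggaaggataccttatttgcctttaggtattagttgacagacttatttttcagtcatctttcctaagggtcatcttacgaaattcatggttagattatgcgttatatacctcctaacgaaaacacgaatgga
SOX9 upstream: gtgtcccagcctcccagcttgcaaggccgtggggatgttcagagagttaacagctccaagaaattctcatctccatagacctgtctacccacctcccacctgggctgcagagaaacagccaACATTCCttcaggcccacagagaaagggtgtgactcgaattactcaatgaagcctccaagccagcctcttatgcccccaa
SOX9 promoter: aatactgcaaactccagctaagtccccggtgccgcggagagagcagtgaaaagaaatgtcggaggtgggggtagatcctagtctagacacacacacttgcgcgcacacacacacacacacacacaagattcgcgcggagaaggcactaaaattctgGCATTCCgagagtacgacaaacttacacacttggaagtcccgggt
ESR1 intron: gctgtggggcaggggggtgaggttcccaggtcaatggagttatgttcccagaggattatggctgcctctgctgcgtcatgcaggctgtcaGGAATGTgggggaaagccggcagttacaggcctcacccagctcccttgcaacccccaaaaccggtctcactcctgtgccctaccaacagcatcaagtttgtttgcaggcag
ELF3 downstream: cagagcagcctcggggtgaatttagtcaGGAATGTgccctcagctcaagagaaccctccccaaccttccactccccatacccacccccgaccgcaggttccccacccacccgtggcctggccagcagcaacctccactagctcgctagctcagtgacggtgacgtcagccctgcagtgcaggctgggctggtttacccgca
EHF promoter: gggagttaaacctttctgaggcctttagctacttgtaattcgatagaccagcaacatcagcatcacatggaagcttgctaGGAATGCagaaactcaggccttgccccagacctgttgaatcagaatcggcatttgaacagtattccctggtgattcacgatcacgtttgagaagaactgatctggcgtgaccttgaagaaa
GATA3 downstream: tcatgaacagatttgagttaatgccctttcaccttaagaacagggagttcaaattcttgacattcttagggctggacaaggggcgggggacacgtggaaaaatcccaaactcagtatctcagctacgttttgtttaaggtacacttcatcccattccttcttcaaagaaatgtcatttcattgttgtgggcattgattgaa
ELF5 and EHF shared: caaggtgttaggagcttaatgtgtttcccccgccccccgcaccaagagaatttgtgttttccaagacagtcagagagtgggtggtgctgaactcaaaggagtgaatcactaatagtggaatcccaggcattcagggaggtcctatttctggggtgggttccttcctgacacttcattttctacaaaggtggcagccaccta
The TEAD motif lay at -98 to -92 in the TP63 sequence, at 21 to 27 and 56 to 62 in the upstream and promoter sequences of SOX9, at -10 to -4 in ESR1, at -72 to -66 in ELF3 and at -20 to -14 in EHF. The GATA3 sequence and the sequence shared by ELF5 and EHF held no match, although these were the strongest sites of their genes. The 8 sequences are not a random sample, since the EHF promoter site was picked from promoter summits that held a TEAD motif. The TP63 site is shown at its 48 h summit, while 0 of the 8 TP63 peaks at 72 h held the motif. Among all 67 peaks of the windows at 72 h, 13 held it (19.4%), so the sequences shown should not be read as typical. The strongest GRHL2 site, with a fold enrichment of 48.1 at 72 h, is not shown and held no TEAD motif. Shares over all peaks of the windows are given further below. A match is a description of the letters and does not show that TEAD bound there.

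The first question was how many TAZ peaks lay around the lineage factors at each time. The windows of the 10 genes together held 5 peaks in the list without Dox, 1 after 24 h, 16 after 48 h and 67 after 72 h, where the exact 95% Poisson interval was 51.9 to 85.1. The count was thus lowest at 24 h and highest at 72 h. At least 1 peak was present for 4 of the 10 genes before Dox, for 1 at 24 h, for 7 at 48 h and for all 10 at 72 h, against 34.4%, 21.9%, 56.8% and 90.3% of all protein-coding genes under the same rule. The share of lineage factors with a peak was near this background in the lists without Dox and at 72 h. Between consecutive lists, more peaks were counted at 24 h than without Dox for 0 of the 10 genes (10.8% of protein-coding genes), at 48 h than at 24 h for 7 (51.0%) and at 72 h than at 48 h for 10 (87.9%). In the rest of the text, 4 counts in a row follow the order without Dox, 24 h, 48 h and 72 h. All intervals given here cover counting error only and not the variation between cultures. Those of fold enrichment ratios take the local background as fixed, so they leave out its counting error.

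**Figure D1:**
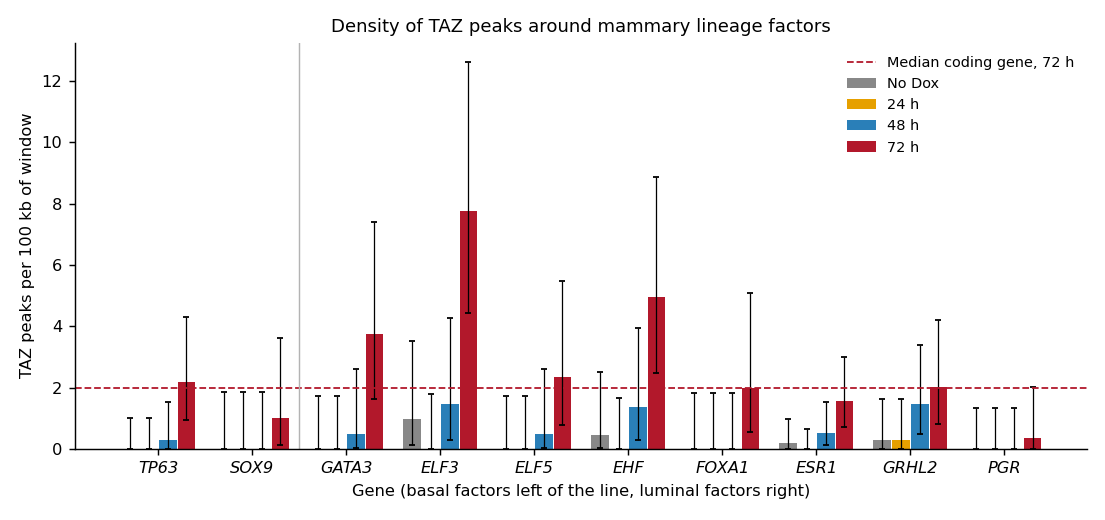
TAZ peaks per 100 kb of window (vertical axis) around each lineage factor (horizontal axis) in the 4 peak lists, with exact 95% Poisson intervals as error bars. At 72 h ELF3 stood at 7.77 and EHF at 4.97 peaks per 100 kb, while SOX9 stood at 1.0 and PGR at 0.359; the dashed line is the median protein-coding gene at 72 h, 2.0.

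The whole lists held 2431, 2469, 11767 and 38667 peaks. The methods of the study state only an average read number and the lists hold no total per library, but the number of ChIP fragments over a summit, its pileup, could be solved from the fold enrichment and p-value of a peak. The median summit pileup was between 20 and 36 fragments, and at the lowest background of a list a peak needed at least 12 fragments at 48 h and 9 in each of the other lists. A site below this level is called absent from a list here, which is not the same as unbound. The lowest background itself was 1.49, 1.42, 2.84 and 2.01 fragments in the 4 lists. Pileups are not adjusted for depth, so a comparison of pileups between lists also holds any difference in depth.

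The comparison of basal with luminal factors used peaks per 100 kb of window, because the windows differ in length. The basal windows (565.9 kb) held 0, 0, 1 and 10 peaks. The luminal windows (2147 kb, with the overlap of ELF5 and EHF counted once) held 5, 1, 15 and 57 peaks. At 72 h this came to 1.77 peaks per 100 kb (0.847 to 3.25) around the basal factors and 2.65 (2.01 to 3.44) around the luminal factors, beside 1.67 over the windows of all protein-coding genes. The luminal interval lay above that overall density and the basal interval contained it. This position of the luminal factors rested on ELF3: without it their density was 2.11 (1.52 to 2.87), an interval that also contained 1.67. The 1.67 counts sequence shared by the windows of several genes once. By gene, the median at 72 h was 1.59 for the basal and 2.19 for the luminal factors, against 2.0 for all protein-coding genes.

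The ratio of basal to luminal density was 0.253 at 48 h (exact 95% interval 0.00601 to 1.64) and 0.666 at 72 h (0.303 to 1.32). Both intervals included 1, so a difference between the classes was not detectable from these counts of 2 basal and 8 luminal genes. Without Dox and at 24 h no ratio could be read, since a count of 0 basal peaks allows up to 3.69 by the exact Poisson interval. The ratio at 72 h also rested on single genes: without TP63, which held 8 of the 10 basal peaks, it was 0.377 (0.0445 to 1.42), and without ELF3 it was 0.837 (0.374 to 1.70).

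**Figure D2:**
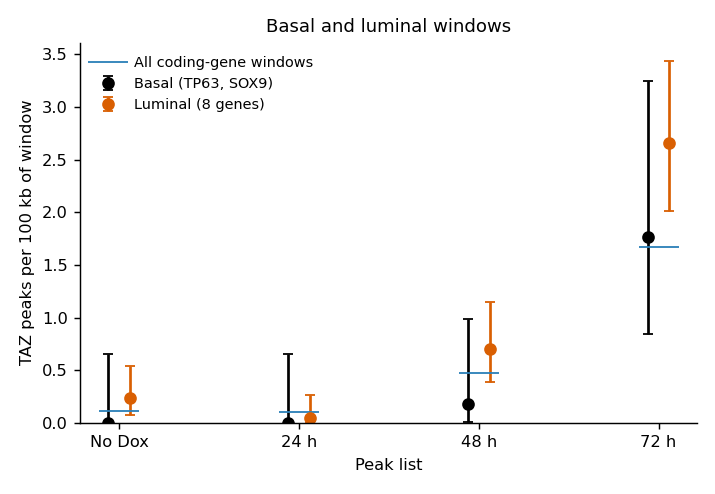
TAZ peaks per 100 kb of window (vertical axis) in the 4 peak lists (horizontal axis) for the 2 basal and the 8 luminal factors, with exact 95% Poisson intervals, and for the windows of all protein-coding genes. At 72 h the basal value of 1.77 lay close to the 1.67 of all windows. The luminal value of 2.65, or 2.11 without ELF3, lay above it, with basal and luminal intervals that overlap. The 1.67 counts shared sequence once, and the median protein-coding gene had 2.0.

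TP63 encodes the p63 proteins, which are made from an upstream promoter as TAp63 and from an internal promoter as ΔNp63, the main form of basal epithelium. Its window held 0, 0, 1 and 8 peaks, the last of which came to 2.19 per 100 kb (0.944 to 4.31), close to the median gene. The peaks at 72 h were of similar strength, with fold enrichments between 5.24 and 7.69. In the annotation 6 transcripts began at or near the upstream start and 8 at or near the internal start, 158 kb further on. At 72 h 3 peaks lay upstream of the gene, 2 between these starts and 3 beyond the internal start. None was near a start: the closest summit was 33.1 kb from the upstream start and 52.1 kb from the internal one. The intronic site at 48 h, 72.8 kb beyond its nearest TSS, had a fold enrichment of 5.41 (pileup 21) and at 72 h of 5.71 (pileup 25), a ratio of 1.06 (0.572 to 2.0). This difference was smaller than counting error.

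**Figure D3:**
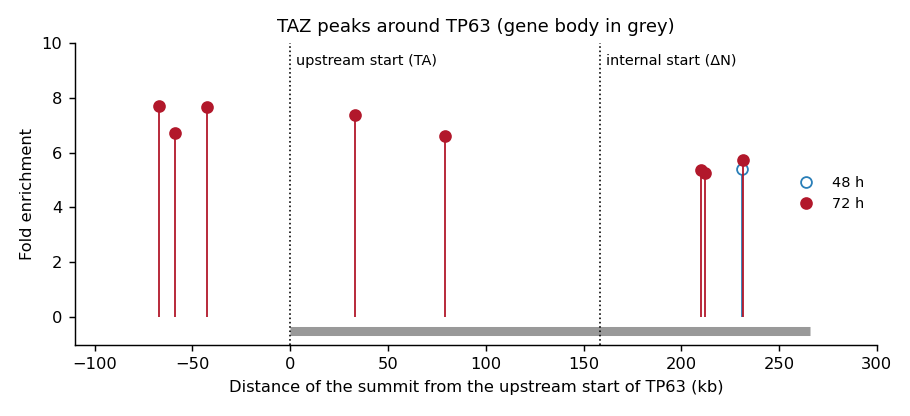
Fold enrichment of each TAZ peak (vertical axis) against the distance of its summit from the upstream start of TP63 in kb (horizontal axis), with the gene body in grey and dotted lines at the upstream and internal starts. The 8 peaks of 72 h, between 5.24 and 7.69, lie on both sides of the starts and none lies at a start; the open symbol is the single 48 h peak.

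SOX9, which encodes an HMG-box factor, had 0, 0, 0 and 2 peaks. The stronger lay 16.3 kb upstream, in an intron of the antisense gene SOX9-AS1, with a fold enrichment of 9.08 and a pileup of 43. The other lay 0.339 kb upstream of the TSS with 4.63 and a pileup of 22, and its nearest TSS was that of SOX9-AS1. Both are the SOX9 sequences shown above, and they were the only peaks around the basal factors at 72 h with a TEAD motif. The density of 1.0 per 100 kb was exceeded by 70.7% of protein-coding genes.

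Among the hormone-sensing luminal factors, GATA3, a zinc-finger factor needed for luminal fate, had 0, 0, 1 and 8 peaks. The 48 h site lay 0.867 kb beyond the end of the gene, and its fold enrichment was 11.0 at 48 h and 17.7 at 72 h, a ratio of 1.61 (1.13 to 2.39). Of the 8 peaks at 72 h, 3 were within 3 kb of a GATA3 TSS, with fold enrichments of 4.09 to 5.26. The gene therefore had its strongest TAZ signal beyond its 3′ end and weaker signal at its starts.

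ESR1 encodes oestrogen receptor alpha, which MCF10A cells are known not to express at an appreciable level. Its window, the longest of the 10 at 572.9 kb, held 1, 0, 3 and 9 peaks, all inside the gene body. The strongest was an intronic site 20.6 kb downstream of the nearest annotated TSS and 93.5 kb from the canonical start, where the TEAD motif lies close to the summit. Its fold enrichment was 4.82 without Dox (pileup 11), 17.9 at 48 h (pileup 79) and 24.4 at 72 h (pileup 126), and it was not called at 24 h. The 72 h value was 5.06 times that without Dox (2.96 to 11.3) and 1.37 times that at 48 h (1.03 to 1.84). No peak lay within 3 kb of an ESR1 TSS in any list, and the 24.4 in its intron was second only to a GRHL2 site among the 10 genes.

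FOXA1, a forkhead pioneer factor, had no peak before 72 h and 4 at 72 h. Of these, 2 lay within 3 kb of a FOXA1 TSS, with fold enrichments of 4.66 (pileup 13) and 6.98 (pileup 21), and the latter was closer to the TSS of the neighbouring TTC6. The strongest, 12.2 with a pileup of 36, lay 83.1 kb upstream in an intron of TTC6. PGR, the progesterone receptor gene, had a single intronic peak in all, at 72 h, with a fold enrichment of 6.13 and a pileup of 25. At 0.359 peaks per 100 kb PGR was the lowest of the 10 genes, and 89.0% of protein-coding genes were denser.

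Of the ETS factors with epithelial roles, ELF3 had the most peaks, with 2, 0, 3 and 16. Its 7.77 peaks per 100 kb (4.44 to 12.6) was the highest density of the 10 genes, and only 1.56% of protein-coding genes were denser. Its interval did not overlap that of TP63, SOX9, ESR1, GRHL2 or PGR, while neighbours in the order of densities could not be told apart by their intervals. The strongest ELF3 site, 21.1 kb downstream of its nearest TSS, had a fold enrichment of 5.45 at 48 h and 14.5 at 72 h, a ratio of 2.67 (1.99 to 3.68). At 72 h 3 peaks lay within 3 kb of an ELF3 TSS, at 6.12, 10.3 and 13.0, of which the first was also called at 48 h with 5.30. The ELF3 window also takes in other genes, and for 7 of its 16 peaks the nearest protein-coding TSS was that of LMOD1, TIMM17A, RNPEP or GPR37L1. The local background under the ELF3 peaks at 72 h was a median of 7.33 fragments (4.93 to 11.2), against 3.55 over all peaks of that list, and whether this moved the number of peaks was not tested.

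ELF5 and EHF are neighbours on chromosome 11, their windows overlap, and the peaks between them count for both. ELF5, the alveolar factor, had 0, 0, 1 and 5 peaks. None lay in its gene body or within 3 kb of its starts, and 1 of the 5 had an ELF5 TSS as its nearest protein-coding TSS. EHF had 1, 0, 3 and 11 peaks, with 4 of the last inside the gene and 3 within 3 kb of an EHF TSS. These 3 lay at internal starts, 19.2 to 23.7 kb from the canonical EHF start. The shared site, 39.4 kb upstream of ELF5 and 56.5 kb upstream of EHF, was the strongest of both genes, with 8.65 at 48 h and 21.3 at 72 h, a ratio of 2.46 (1.78 to 3.47). Its pileup was 59 fragments at 48 h and 102 at 72 h, 1.73 times higher. The local background of this site was 5.93 fragments at 48 h and 3.84 at 72 h.

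A second EHF site, 42.9 kb downstream of its nearest TSS, had fold enrichments of 6.06 before Dox, 4.49 at 48 h and 15.8 at 72 h, and was not called at 24 h. Its pileup was 18, 42 and 70 fragments and its local background 2.13, 8.58 and 3.48 fragments. The lower fold enrichment at 48 h thus stood beside a higher local background. These fragment numbers are not adjusted for depth, and the lowest background of a whole list was also highest at 48 h. The EHF promoter site shown above had 3.48 at 48 h and 6.99 at 72 h.

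GRHL2, a grainyhead factor that maintains epithelial junctions, was the only lineage factor with a peak in every list, with 1, 1, 5 and 7. The peaks without Dox and at 24 h were at different sites. The site 55.2 kb upstream was enriched 5.27-fold before Dox, 7.30-fold at 48 h and 16.2-fold at 72 h. The site 37.3 kb upstream, within 3 kb of the start of a long non-coding RNA gene, had a fold enrichment of 5.5 at 24 h (pileup 17), 9.79 at 48 h (pileup 98) and 48.1 at 72 h (pileup 223). The 72 h value was the highest around any of the 10 genes, 8.75 times that at 24 h (5.63 to 16.1; 97.2% of all matched peaks were higher at 72 h than at 24 h) and 4.92 times that at 48 h (3.88 to 6.34). Here too the local background differed, with 9.12 fragments at 48 h and 3.65 at 72 h, and between these lists the pileup itself was 2.28 times higher. No peak was within 3 kb of a GRHL2 TSS.

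**Figure D4:**
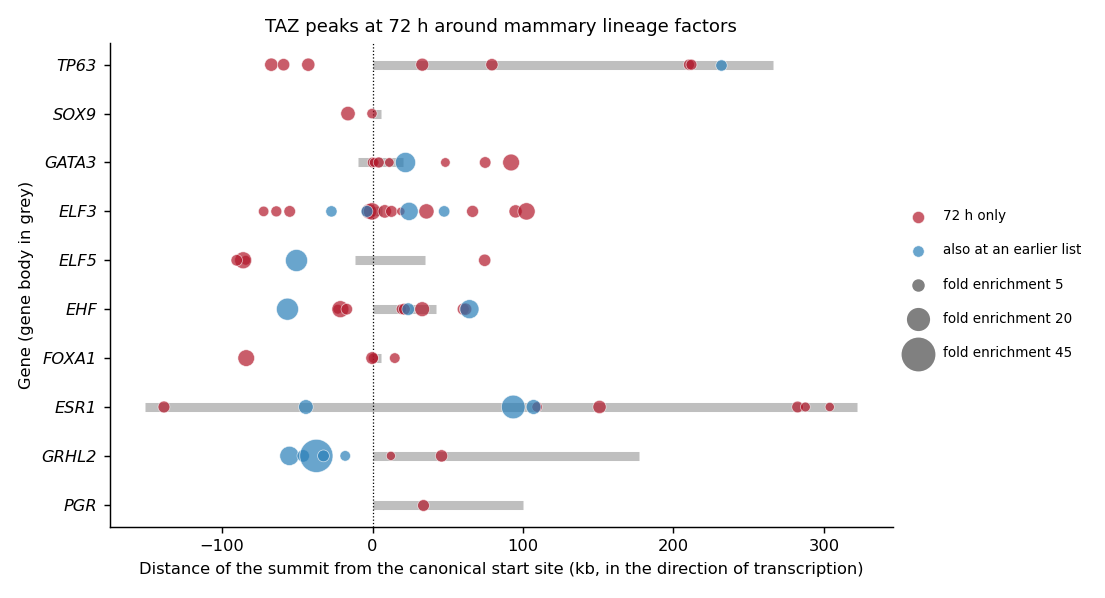
Distance of each 72 h TAZ summit from the canonical start of its gene in kb, in the direction of transcription (horizontal axis), for the 10 lineage factors (vertical axis), with the gene body in grey and symbol area scaled to fold enrichment. Blue sites were also called in an earlier list, and the largest symbol is the GRHL2 site of 48.1; the ELF5 and EHF rows share sites.

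A summit within 3 kb of a TSS of the gene was present for 0 of the 10 in the lists without Dox and at 24 h, for 2 at 48 h (ELF3 and EHF) and for 5 at 72 h (SOX9, GATA3, ELF3, EHF and FOXA1), against 9.40%, 2.55%, 9.09% and 58.4% of all protein-coding genes. Within 1 kb the count at 48 h was 0, since these summits lay 1.06 kb from ELF3 and 2.12 kb from EHF, and it was still 5 at 72 h. TP63, ELF5, ESR1, GRHL2 and PGR had none in any list. These counts take any annotated TSS, and distances to the canonical start could be longer. At 48 h the ELF3 summit lay 3.70 kb and the EHF summit 23.7 kb from the canonical start of its gene. The EHF summits counted at 72 h lay 19.2 to 23.7 kb from the canonical EHF start. Counting promoters of any gene, 20 of the 67 peaks at 72 h (29.9%) were at a promoter. A further 23 were in introns, 24 were intergenic and 0 were in exons. Among all peaks of the 72 h list on the main chromosomes, inside or outside gene windows, the promoter share was 43.7%. By distance to the nearest TSS of the lineage factor, 12 peaks lay within 3 kb with a median fold enrichment of 5.65, 14 between 3 and 20 kb with 5.91, 21 between 20 and 50 kb with 7.37 and 20 beyond 50 kb with 6.11. GATA3, ELF3, EHF, FOXA1 and SOX9 had peaks both at and away from their own promoters at 72 h. The highest value of each was at a site away from these promoters, though at ELF3 by a margin of 14.5 against 13.0 only. TP63, ELF5, ESR1, GRHL2 and PGR had no peak at their own promoters, so their highest values could only lie elsewhere.

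When overlapping peaks of the 4 lists were merged, the lineage factors had 67 sites, and every one was called at 72 h. Of these, 50 (74.6%) were called at 72 h only, against 66.5% of all 39503 sites, and 11 at 48 and 72 h (16.4%, against 21.2%). A further 4 were in every list but 24 h (5.97%, against 0.929%), 1 in every list but that without Dox (1.49%, against 4.52%) and 1 without Dox and at 72 h (1.49%, against 3.26%). The 4 sites missing at 24 h alone belonged to EHF, ELF3, ESR1 and GRHL2, and no site was in all 4 lists. At the ELF3 site the peaks without Dox and at 48 h did not overlap each other, and only the wider 72 h peak joined them. Their summits lay 43.0 kb (without Dox) and 44.4 kb (48 h) downstream of the nearest ELF3 TSS. Of the 10 basal sites 9 were called at 72 h only, the exception being the TP63 intron site. At 72 h, sites called in that list only had a median fold enrichment of 6.08 (3.01 to 13.1), near the 6.03 of all such sites. The 17 sites also called earlier had 9.36 (4.86 to 48.1), beside 12.5 over all such sites. An earlier call here means an overlap of at least 1 bp, and 10 of the 17 overlapped by 50% of both peaks.

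At the 16 sites called at both 48 and 72 h the fold enrichment was higher at 72 h in 15, against 91.0% of all matched peaks. The counting interval of the ratio, with the background taken as fixed, lay above 1 in 9 of the 16. The median ratio was 1.56, and it was 1.90 over all matched peaks. Of the 5 sites called both without Dox and at 72 h, 4 were higher at 72 h, against 77.6% of all. The exception was the peak at the RNPEP promoter in the ELF3 window, with 5.77 without Dox and 5.55 at 72 h. Among the 4 higher sites, the one downstream of ELF3 set 2 different positions side by side. Its summits lay 43.0 kb (without Dox) and 44.4 kb (72 h) from the nearest ELF3 TSS.

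**Figure D5:**
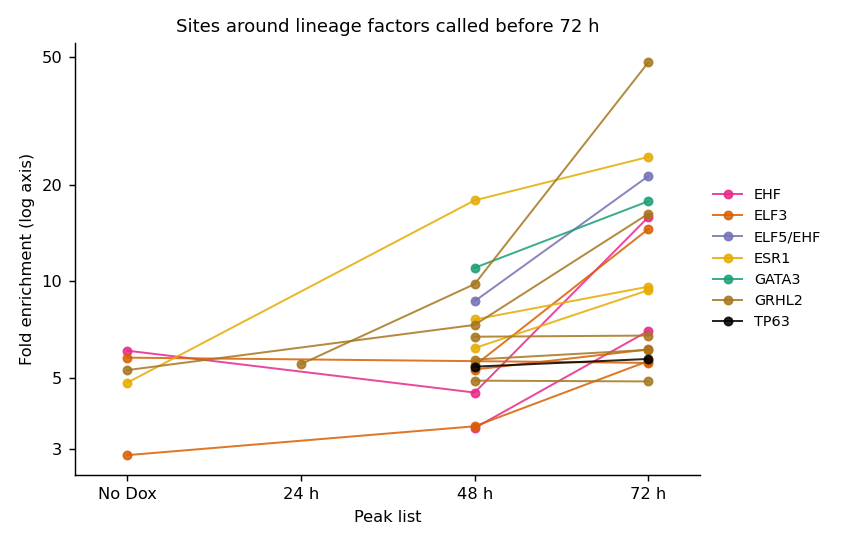
Fold enrichment (vertical log axis) of the sites around lineage factors that were called before 72 h, in each of the 4 lists (horizontal axis); points are called peaks, lines join the calls of a site and pass over lists where it was not called. Most lines end higher at 72 h, the GRHL2 site at 48.1 and the ESR1 site at 24.4, while the TP63 site stays between 5.41 and 5.71.

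The sequences under the summits were compared with all peaks of the same list. Within 100 bases of the summit, the TEAD motif was present in 13 of the 67 peaks at 72 h (19.4%, against 27.7% of all peaks) and the AP-1 motif (TGACTCA or TGAGTCA) in 16 (23.9%, against 16.0%). The RUNX motif TGTGGTT was present in 5 (7.46%, against 6.86%), the ETS motif CCGGAAGT in 0 (against 2.0%), and 36 (53.7%, against 54.6%) held none. Outside promoters TEAD was found in 7 of 47 peaks (14.9%, against 35.1%) and AP-1 in 14 (29.8%, against 20.8%). At 48 h TEAD was found in 6 of 16 peaks (37.5%, against 41.8%) and AP-1 in 3 (18.8%, against 19.9%).

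Around the basal factors at 72 h, both SOX9 peaks had a TEAD motif and no AP-1 motif, whereas 3 of the 8 TP63 peaks had an AP-1 motif and 0 had a TEAD motif. The TEAD motif of the TP63 sequence shown above lay within the window of the 48 h summit and outside that of the 72 h summit of the same site. ELF3 had TEAD in 4 and AP-1 in 4 of its 16 peaks, ESR1 had TEAD in 1 and AP-1 in 4 of 9, and GATA3 had TEAD in 1 and AP-1 in 0 of 8. The counts per gene are small and the peaks of a gene share their surroundings.

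Other lineage genes were described in the same way. Of 6 other basal mammary factors, 0, 0, 2 and 6 had a peak, those at 48 h being ID4 and SOX10, with a median of 1.5 peaks per 100 kb at 72 h. The highest fold enrichment among them was 39.5 at 72 h, near SOX10, a neural crest and basal progenitor factor, which had 3 peaks at 48 h and 8 at 72 h. Of 10 other luminal factors, 1, 3, 4 and 10 had a peak, with a median of 1.41 at 72 h. TFAP2C, an AP-2 factor, reached 8 peaks and 30.2 at 72 h, and STAT5A, the transducer of prolactin signals, had 1, 1, 4 and 7 peaks.

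Of 10 factors of other tissues, 2, 1, 3 and 7 had a peak, with a median of 1.5 at 72 h, and NEUROD1, PAX6 and PDX1 had none at 72 h. The 10 lineage factors had a median of 2.11 peaks per 100 kb and all protein-coding genes 2.0. By density, the other basal, other luminal and other-tissue factors thus lay close to each other at 72 h.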

How the data were processed

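TAZ ChIP-seq of 4 conditions was analysed from 1 peak list each, with samples grouped by their titles. A list is named by both the TAZ and the IgG library of its condition, and whether IgG was the control of the peak caller is not given in the sources used here. Per the labels and methods, the authors mapped reads to hg38 with BWA and used MACS2 to call peaks (false discovery rate 0.01), with versions not given in the sources used here. The deposited values are the fold enrichment of each summit over local background, a ratio with a pseudocount on both sides, and the −log10 p-value and −log10 q-value that the authors' peak caller gave.

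Peaks were assigned to genes with GENCODE version 44 (Python 3.11.15, pandas 2.3.3, scipy 1.17.1), and coordinates are 1-based on hg38. A promoter reached 3 kb to each side of any annotated TSS. Overlapping windows within a class were merged. Summit pileup and background were solved from fold enrichment and p-value and gave back 100% of the −log10 p-values to within 0.003. The solution and the window counts were tested on simulated data. Counts have exact Poisson intervals and ratios of counts exact binomial ones, at 95%, for counting error only. For ratios of fold enrichment the binomial interval is that of the summit pileups, with the backgrounds taken as fixed. Peaks were matched between lists by an overlap of at least 1 bp. Motifs were searched in 201 bp around summits.

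The 10 genes and the other gene lists were chosen with earlier results of these data known. Named genes are the lineage factors, genes of those lists chosen as examples, genes nearest to a named peak, and the genes whose densities over the 4 lists were closest to those of TP63 and SOX9; the RNPEP peak, the GATA3 and FOXA1 promoter peaks other than the strongest, and the summary of neighbours of ELF3 were named after their values were seen. Alternatives were a window of 50 kb, −log10 q of at least 5, assignment to the nearest protein-coding TSS, a common depth and p threshold, narrower promoters, a 50% overlap and, added after the data were seen, each gene left out.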

Additional observations from a re-analysis of the deposited data

How the results depend on the processing

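The number of peaks around the lineage factors at 72 h was between 54 and 64 under the 4 alternatives, against 67, and the basal to luminal ratio at 72 h was between 0.626 and 0.862, with every interval including 1. With −log10 q of at least 5, 3 peaks remained without Dox, against 5. With promoters of 1 kb, 0 genes had a promoter peak at 48 h, against 2. Where overlaps had to cover 50% of each of the intervals, 10 of the 72 h peaks matched an earlier list, against 17. Each of these alternatives is stricter than the main setting by construction, in the peaks kept, the reach of a promoter or the overlap asked for. The other counts kept within 1.5 times of their value, and leaving out a gene gave ratios between 0.377 and 0.837 at 72 h. No paired analysis was possible because each condition had 1 peak list and no replicate. Single libraries, whose separate read totals the lists do not hold, limit every comparison between times.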

Other observations

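The genes whose peak densities over the 4 lists were closest to those of TP63, by Euclidean distance of log2 densities, were PARVB (0.0146), AKNAD1 (0.0973) and GPR39 (0.103). PARVB, which encodes an actin-binding adaptor of focal adhesions, had 0, 0, 1 and 8 peaks in the lists from no Dox to 72 h, the same numbers as TP63. For SOX9 the closest were ACER2, ADO and APOOL, each with 2 peaks at 72 h and a distance of 0, but 637 genes lay within 0.1 of SOX9, so its pattern was a common one.

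At 72 h, 8 peaks inside the windows of the lineage factors lay within 3 kb of a TSS of another gene and not of the lineage factor. Of these, 4 were at long non-coding RNA genes or a pseudogene, with fold enrichments of 3.01, 3.74, 4.23 and 48.1, the last being the GRHL2 site of the report. The protein-coding ones were at LMOD1 (fold enrichment 5.23), TIMM17A (5.90) and RNPEP (5.55) around ELF3 and at CAT (6.61), which encodes catalase, in the window of ELF5. The CAT peak was 304 bases from the CAT TSS.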
